A study of Homo sapiens with 6 samples.

Results

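Replication-dependent histone genes encode the bulk of the chromatin protein that a cell makes while it copies its DNA. They were taken here as all protein-coding genes with a symbol of H1-1 to H1-6 or with the prefix H2AC, H2BC, H3C or H4C followed by a number. The rule found 69 of the 28395 genes of the count table by symbol alone. Of these, 55 lie on chromosome 6 and 14 elsewhere, 13 of them on chromosome 1 and H4C16 on chromosome 12. The resistant group is MDA-MB-468-PR, a derivative of a human triple-negative breast cancer cell line, MDA-MB-468, that was kept for 2 months in paclitaxel, a microtubule-stabilising drug, at 3 to 4.5 nM. The control group is the parental MDA-MB-468 line. Each group has 3 libraries of bulk RNA, and the labels give all 6 as untreated, so no drug treatment is recorded for the samples themselves. Resistant replicate 1 and control replicate 1 carry a 2020 batch label, and replicates 2 and 3 of both groups a 2021 label. The resistant libraries all come from 1 derivative, so exposure to the drug cannot be told apart from anything else that changed in that derivative.

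Linker histone H1 binds the DNA between nucleosomes, and H2A, H2B, H3 and H4 form the protein core that DNA wraps around. Cells carry many near-copies of these genes in clusters, switch them on together as DNA replication starts and remove their mRNAs when it ends. Their transcription is driven from a nuclear body organised by NPAT, and their mRNAs end in a stem-loop bound by SLBP in place of a poly(A) tail. H2A and H2B genes often stand back to back and share the stretch between them as a promoter.

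Promoter stretches of 3 H2B genes are shown because these genes stood for the 3 patterns found: H2BC17 on chromosome 6 was lower in the resistant line, H2BC21 in the large chromosome 1 group did not pass the test, and H2BC26 in a pair on chromosome 1 was higher. Each runs from 250 bases before to 50 bases after the start of the RefSeq gene (build GRCh38.p14), 5′ to 3′ on the gene's own strand. The stretches are chr6:27893175-27893474 (plus strand) for H2BC17, chr1:149886633-149886932 (minus strand) for H2BC21 and chr1:228457853-228458152 (plus strand) for H2BC26. Capitals mark CCAAT, the letters bound by NF-Y, TATAAA, the TATA box, and ATTTGCAT, the octamer bound by POU2F1, each searched on both strands.
H2BC17: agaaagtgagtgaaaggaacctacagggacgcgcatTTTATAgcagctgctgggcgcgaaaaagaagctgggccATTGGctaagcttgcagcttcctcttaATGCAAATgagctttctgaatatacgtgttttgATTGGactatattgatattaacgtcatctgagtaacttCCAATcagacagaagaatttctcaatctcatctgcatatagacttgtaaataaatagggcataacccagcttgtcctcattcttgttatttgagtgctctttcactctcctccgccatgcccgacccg
H2BC21: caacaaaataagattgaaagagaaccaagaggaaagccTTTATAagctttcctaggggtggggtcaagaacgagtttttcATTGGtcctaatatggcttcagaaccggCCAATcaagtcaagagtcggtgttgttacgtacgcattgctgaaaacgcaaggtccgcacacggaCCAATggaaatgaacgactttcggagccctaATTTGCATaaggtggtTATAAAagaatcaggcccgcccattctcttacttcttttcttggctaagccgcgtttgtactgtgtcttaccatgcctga
H2BC26: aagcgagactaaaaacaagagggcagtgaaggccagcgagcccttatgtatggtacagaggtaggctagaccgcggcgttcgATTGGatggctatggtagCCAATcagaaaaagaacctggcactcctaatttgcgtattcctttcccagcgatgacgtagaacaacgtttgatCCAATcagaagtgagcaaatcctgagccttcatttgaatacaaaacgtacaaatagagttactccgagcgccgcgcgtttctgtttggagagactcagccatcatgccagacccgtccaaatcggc
All 3 held 3 copies of CCAAT. H2BC17 held 1 TATAAA and 1 ATTTGCAT, both on the strand opposite to the gene, which is that of its partner H2AC17. On its own strand H2BC17 thus held neither. H2BC21 held 2 and 1, of which 1 TATAAA and the ATTTGCAT were on its own strand. H2BC26 held none of either on any strand in this window. The same was true of H2AC25, which stands back to back with H2BC26 and shares most of this stretch. Neither motif was found in 15 of the 64 histone promoters, among them those of 5 genes that fell, H1-2, H3C3, H4C8, H2AC15 and H2BC15, so the lack is not particular to the pair that rose. Of the 50 chromosome 6 histone promoters in the table, 86% held CCAAT, 66% TATAAA and 44% ATTTGCAT, and of the 14 elsewhere 78.57%, 64.29% and 28.57%. Among all 27305 promoters of the table the shares were 35.7%, 11.95% and 1.8%. On chromosome 6 the octamer was found in 9 of 11 H2A and 12 of 15 H2B promoters, in 1 of 8 H3 promoters, and in no H1 or H4 promoter. These are matches of letters in the reference genome and do not show that a factor was bound.

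Stem-loops are shown because the same stem-loop letters were found in genes that were higher, lower or did not pass the test. The 16-base pattern of GG, NN, CTTNT, NAG, NN and CC in a row was searched in GENCODE 29 transcripts, on the transcript's strand only, and was found in 20 of the 55 chromosome 6 genes and in 11 of the 14 elsewhere. Many of the histone transcripts in that release hold the coding sequence alone, so no match there says nothing about the mRNA. The most frequent form, that of H2BC26, was found in 9 genes on chromosome 6 and 8 elsewhere. Genes with this form that fell include H2BC6, H2BC8 and H2BC9, whose sequences are not shown. Capitals mark the stem-loop, with 5 bases on each side.
H2BC26: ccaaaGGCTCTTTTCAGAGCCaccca
H2AC25: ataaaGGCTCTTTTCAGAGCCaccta
H2BC21: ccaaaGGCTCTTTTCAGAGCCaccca
H4C16: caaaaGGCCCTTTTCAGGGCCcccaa
H4C8: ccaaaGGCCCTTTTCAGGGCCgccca
H2BC4: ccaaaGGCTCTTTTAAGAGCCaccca
H2BC5: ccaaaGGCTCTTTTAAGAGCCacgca
H2BC26, H2AC25 and H2BC21 shared 1 form of the 16-base stem-loop, and H4C16 and H4C8 shared another. In these transcripts the stem-loop was followed by 1917, 390 and 1729 bases in H2BC26, H2AC25 and H2BC21, by 169 and 18 in H4C16 and H4C8, and by 116 and 39 in H2BC4 and H2BC5, so most of the annotated transcripts run on past it. The form of H2BC4 and H2BC5 was found in 4 genes, all on chromosome 6.

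Total counts were 37889818, 63073979 and 93680129 in resistant replicates 1 to 3 and 41343499, 59171296 and 66475627 in control replicates 1 to 3. Levels are given as CPM, counts scaled to a common library size by TMM. In all, 13950 genes passed the filter on low counts, of which 764 were lower in the resistant line (5.48%) and 869 higher (6.23%). A gene is said to have fallen or risen where its adjusted p was under 0.05 (quasi-likelihood test of edgeR, fitted with group and batch, Benjamini-Hochberg adjustment over all tested genes). The label of an epithelial line was matched by EPCAM at 367 to 663 CPM and KRT8 at 1178 to 2175 CPM in every library, and PGR had no count. KRT14, another keratin of the same 8-gene list, was low, at 2.42 to 11.0 CPM in resistant and 13.6 to 37.6 CPM in control libraries, and fell, while EGFR rose. The 9 blood and stromal markers summed to 36.7 to 43.4 CPM in resistant and 34.1 to 43.9 CPM in control libraries, mostly COL1A1 (22.4 to 30.3 CPM over all libraries) and CD14 (6.51 to 18.7 CPM), with PTPRC at or under 0.09 CPM and CD3E and DCN at 1 count or none.

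On chromosome 6 the histone genes were lower in the resistant line as a block. Of 51 tested genes 27 fell and none rose, against 5.48% lower among all tested genes, and 50 of the 51 had a negative log2 fold change. The exception was H4C9, with 0.188, 0.195 and 0.239 CPM in resistant and 0.149, 0.161 and 0.236 CPM in control libraries, a level of a few reads. The median log2 fold change was -0.68, against 0.00 (-0.0039) over all tested genes. The 27 falls were of similar size, between 1.45-fold for H2BC8 and 1.81-fold for H2BC4. Among the 51 tested genes, 27 had every resistant library below every control library, against 10.2% of all tested genes. Of the 27 genes that fell, 19 were separated in this way, a count among genes that the test had picked from the same libraries. In bulk RNA, fewer cells in S phase and less histone mRNA per cell in S phase cannot be told apart. Other protein-coding genes among and around these histone genes also fell, as given below, and the cause was not tested.

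**Figure D1:**
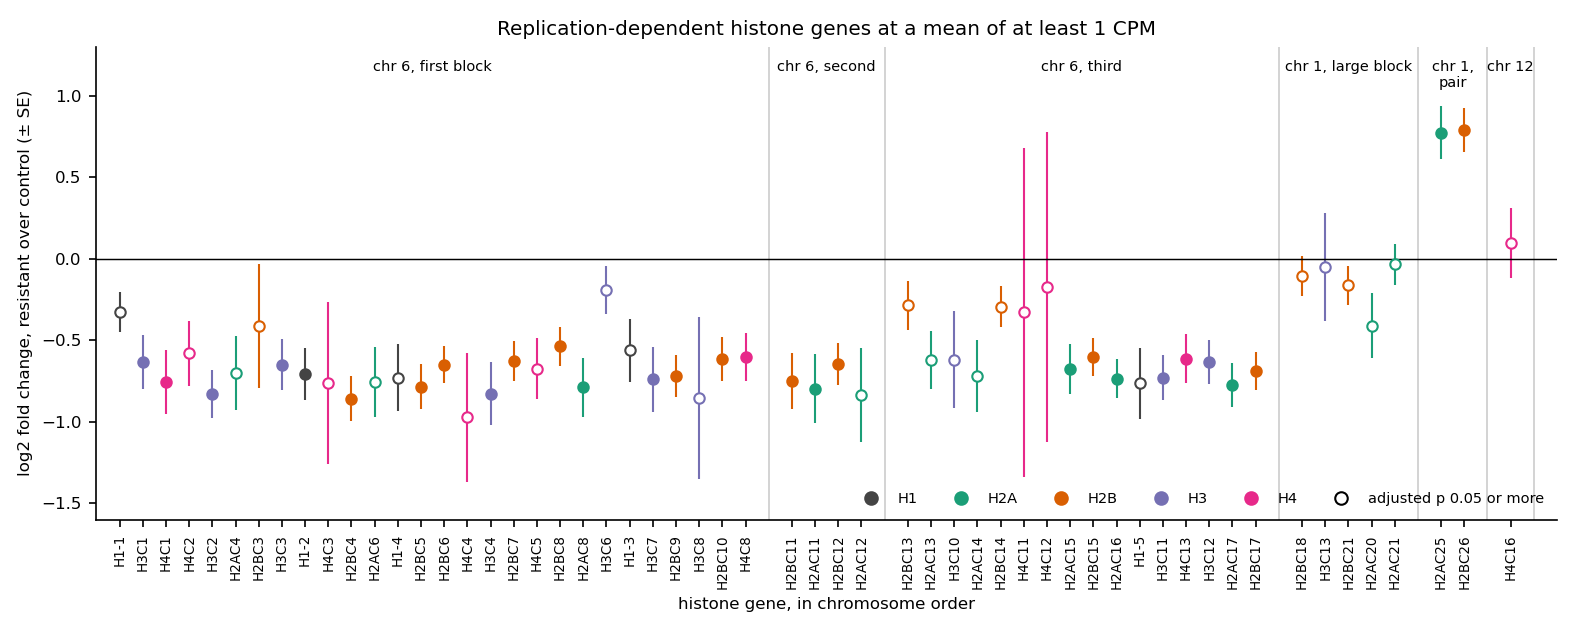
Log2 fold change (resistant over control, ± SE) of each histone gene averaging 1 CPM or more, in chromosome order and coloured by family, with open points where the adjusted p was 0.05 or more. All 48 chromosome 6 genes shown lie below 0, and the rises are the pair H2AC25 and H2BC26 on chromosome 1.

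The count of falls depended on single libraries, the sizes less so. Among the 48 chromosome 6 genes averaging 1 CPM or more, the lowest library was resistant replicate 3 in 36 and resistant replicate 1 in 12. Without resistant replicate 3 the number of falls was 8, with a median of -0.52. Without control replicate 2 it was 15, and without resistant replicate 1 it was 16. Over all tested genes, 764 were lower with every library in the fit. That number was 279 without resistant replicate 3, 790 without control replicate 2 and 445 without resistant replicate 1. Of the 27 genes, 7 passed the test without any 1 library: H2AC16, H2AC17, H2BC4, H2BC5, H2BC17, H3C2 and H3C11. The other 20 each missed the threshold without at least 1 library, with a highest adjusted p of between 0.0506 and 0.152.

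H2B was the family with the most falls, 11 of 14 tested genes on chromosome 6 (H2BC4 to H2BC12, H2BC15 and H2BC17). H2BC4 (Entrez gene 8347, chr6:26113170-26123926, GRCh38) had 361, 361 and 282 CPM in resistant and 568, 614 and 635 CPM in control libraries. The groups did not overlap, and even the highest resistant library was well below the lowest control library. Its log2 fold change was -0.86 ± 0.14 SE (edgeR adjusted p = 0.00575). H2BC5 had 412, 381 and 299 CPM in resistant and 602, 656 and 615 CPM in control libraries, a log2 fold change of -0.79 (edgeR adjusted p = 0.00898). H2BC9 had 326, 382 and 325 CPM in resistant and 466, 652 and 595 CPM in control libraries, again without overlap, but without resistant replicate 3 its adjusted p was 0.0506. H2BC6, the least abundant H2B gene that fell, had 29.7, 31.3 and 33.6 CPM in resistant and 38.8, 52.9 and 58.5 CPM in control libraries. The log2 fold changes of the H2B genes that did not pass were -0.41 for H2BC3, -0.29 for H2BC13 and -0.29 for H2BC14.

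H3 genes fell in 7 of 10 cases (H3C1, H3C2, H3C3, H3C4, H3C7, H3C11 and H3C12). H3C2 had 318, 304 and 218 CPM in resistant and 485, 499 and 501 CPM in control libraries. Its control libraries were nearly level, and resistant replicate 3 was the lowest of all. The log2 fold change was -0.83 ± 0.15 SE (edgeR adjusted p = 0.00944). H3C11 had 226, 280 and 214 CPM in resistant and 319, 449 and 440 CPM in control libraries, also without overlap. H3C12 had 61.9, 126 and 94.2 CPM in resistant and 81.3, 189 and 182 CPM in control libraries, where the 2020 control library lay among the resistant ones. The call of H3C7 (edgeR adjusted p = 0.0492) ended with the replicate number as a block, at an adjusted p of 0.058. H3C7 also ended without resistant replicate 1 or 3 or any 1 control library, at up to 0.135.

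Among H2A genes 5 of 11 fell: H2AC8, H2AC11, H2AC15, H2AC16 and H2AC17. H2AC17 had 231, 225 and 178 CPM in resistant and 332, 373 and 378 CPM in control libraries, a log2 fold change of -0.77 ± 0.13 SE (edgeR adjusted p = 0.00838). Of its stretches of 50 bases 86.3% also occur in a transcript annotated for H3C12, so reads may be shared between them. H2AC16 had 119, 151 and 125 CPM in resistant and 178, 259 and 228 CPM in control libraries, and both genes separated the groups fully. H2AC11 had 192, 315 and 180 CPM in resistant and 264, 470 and 495 CPM in control libraries, so its groups overlapped through the 2020 control library. Its adjusted p was 0.0485 by edgeR and 0.0527 with the replicate block, and up to 0.152 without resistant replicate 1 or 3 or any 1 control library.

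In the H4 family 3 of 10 tested genes fell: H4C1, H4C8 and H4C13. H4C8 had 153, 182 and 125 CPM in resistant and 210, 245 and 245 CPM in control libraries, a log2 fold change of -0.60 ± 0.15 SE (edgeR adjusted p = 0.0327). Its groups did not overlap, but the call ended without resistant replicate 1 or 3 or control replicate 1 or 2, with an adjusted p of up to 0.0819. H4C1 ended with the replicate block, at an adjusted p of 0.0646 against 0.0455 by edgeR with the batch, and without resistant replicate 1 or 3 or control replicate 2 or 3, at up to 0.151. Of the 61 histone genes with a RefSeq span under 1000 bases, 4 were not tested, and 8 genes with a longer span were not ranked. Among the tested genes with a short span, H4C5 had the highest mean level per kb of that span in control cells. Its means were 956 CPM per kb in resistant and 1497 CPM per kb in control libraries. Over its longer GENCODE 29 transcript of 1487 bases the means were 265 CPM per kb in resistant and 415 CPM per kb in control libraries, so this place depends on the length used. It had 526, 405 and 250 CPM in resistant and 728, 511 and 611 CPM in control libraries, where the groups overlapped by 1 library, and it did not pass (log2 fold change -0.67, edgeR adjusted p = 0.0529).

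Linker histones gave 1 fall in 6 tested genes, H1-2. It had 548, 441 and 302 CPM in resistant and 806, 602 and 675 CPM in control libraries, with no overlap (log2 fold change -0.71, edgeR adjusted p = 0.0234). Without resistant replicate 1 or 3 the adjusted p was up to 0.0673. H1-4, the histone gene with the highest CPM, had 660, 654 and 372 CPM in resistant and 1023, 787 and 973 CPM in control libraries. These values did not overlap either, and its log2 fold change of -0.73 ± 0.21 SE missed the threshold (edgeR adjusted p = 0.0571). H1-1 had 118, 204 and 167 CPM in resistant and 125, 258 and 248 CPM in control libraries, so the groups overlapped (log2 fold change -0.33, edgeR adjusted p = 0.136).

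Many of the chromosome 6 genes that missed the threshold had log2 fold changes like those of the genes that fell. Of the genes averaging 1 CPM or more, 21 did not pass, and 14 of them had a log2 fold change at or below that of H2BC8, the smallest fall. The 2021 libraries of a group also differed from each other. Over histone genes of all chromosomes at 1 CPM or more, resistant replicate 2 exceeded resistant replicate 3 in 54 of 56, and control replicate 3 exceeded control replicate 2 in 34 of 56. The gap was at least 1.5-fold in both groups in 5 genes, H4C11, H4C12, H4C3, H3C8 and H2BC3, none of which passed the test; these were singled out after their values were seen. H4C11 had 11.8, 38.3 and 4.43 CPM in resistant and 16.3, 12.6 and 38.5 CPM in control libraries, so 1 library of each group was several times the others. H4C3 had 273, 288 and 90.3 CPM in resistant and 410, 235 and 446 CPM in control libraries.

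**Figure D2:**
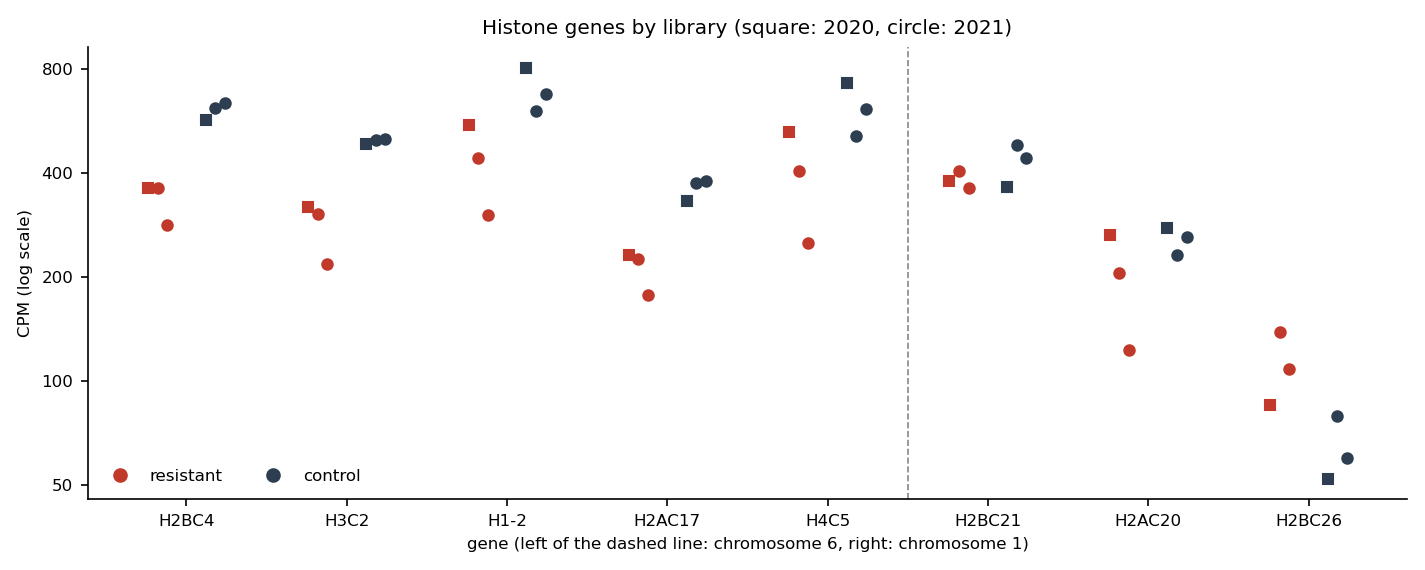
Level (CPM, log scale) of 8 histone genes in each library, resistant libraries left and control libraries right of each pair, squares for 2020 and circles for 2021. H2BC4, H3C2, H1-2 and H2AC17 on chromosome 6 show no overlap of the groups, H4C5, H2BC21 and H2AC20 overlap, and H2BC26 is higher in every resistant library.

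Away from chromosome 6, 2 of 14 tested histone genes rose, against 6.23% higher among all tested genes, and none fell. Both belong to 1 back-to-back pair on chromosome 1 at 228.46 Mb. H2BC26 (Entrez gene 128312, chr1:228458103-228458558) had 85.4, 139 and 109 CPM in resistant and 52.3, 79.2 and 60.0 CPM in control libraries. Every resistant library lay above every control library, and the log2 fold change was 0.79 ± 0.14 SE (edgeR adjusted p = 0.00836). H2AC25 (Entrez gene 92815, chr1:228457364-228457873) had 28.2, 65.3 and 41.8 CPM in resistant and 17.7, 31.9 and 28.5 CPM in control libraries. These ranges overlapped, since the 2020 resistant library lay below both 2021 control libraries. Its log2 fold change was 0.77 ± 0.16 SE (edgeR adjusted p = 0.0192), and the call ended without resistant replicate 1 or 2 or control replicate 1 or 2, with an adjusted p of up to 0.0774.

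None of the 11 genes of the large chromosome 1 group at 149.78 to 149.89 Mb passed the test, and their median log2 fold change was -0.18. H2BC21 (chr1:149884459-149886682), the most abundant of them, had 378, 404 and 360 CPM in resistant and 365, 482 and 440 CPM in control libraries, a log2 fold change of -0.16 ± 0.12 SE (edgeR adjusted p = 0.44). H2BC18 had 268, 357 and 324 CPM in resistant and 243, 420 and 376 CPM in control libraries. In both genes the resistant values lay largely within the range of the control values. H2AC20 had 265, 205 and 123 CPM in resistant and 278, 231 and 261 CPM in control libraries, with resistant replicate 3 well below the rest (log2 fold change -0.41, edgeR adjusted p = 0.24). H3C13 had 48.2, 74.1 and 33.5 CPM in resistant and 34.0, 61.8 and 71.8 CPM in control libraries. H4C16 on chromosome 12 had 50.3, 82.7 and 47.5 CPM in resistant and 41.4, 55.6 and 73.5 CPM in control libraries. For H3C13 and H4C16 the groups overlapped widely (edgeR adjusted p = 0.946 and 0.808). Of these 14 genes 6 lay under a mean of 1 CPM, and all 6 share over 90% of their stretches of 50 bases with another gene's transcripts, so their counts may be split with near-copies.

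Adding up the genes, the chromosome 6 histones summed to 9144, 10551 and 7050 CPM in resistant and 12880, 14742 and 15930 CPM in control libraries. All resistant libraries lay below all control libraries, with means of 8915 ± 1762 and 14517 ± 1537 CPM (SD, n = 3 each). The histone genes elsewhere summed to 1198, 1417 and 1110 CPM in resistant and 1094, 1450 and 1404 CPM in control libraries, which overlapped. The log2 ratio of the chromosome 6 sum to the sum elsewhere was 2.93, 2.90 and 2.67 in resistant and 3.56, 3.35 and 3.50 in control libraries, a ratio that scaling between libraries cannot move. It was lower by 0.64 on average, with a difference of -0.62 in 2020 and -0.64 in 2021. Chromosome 6 genes gave 87.7 ± 1.1% of the histone counts in resistant and 91.7 ± 0.588% in control libraries. By family, the log2 difference of the chromosome 6 sums was -0.69 for H1, -0.76 for H2A, -0.67 for H2B, -0.75 for H3 and -0.67 for H4.

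**Figure D3:**
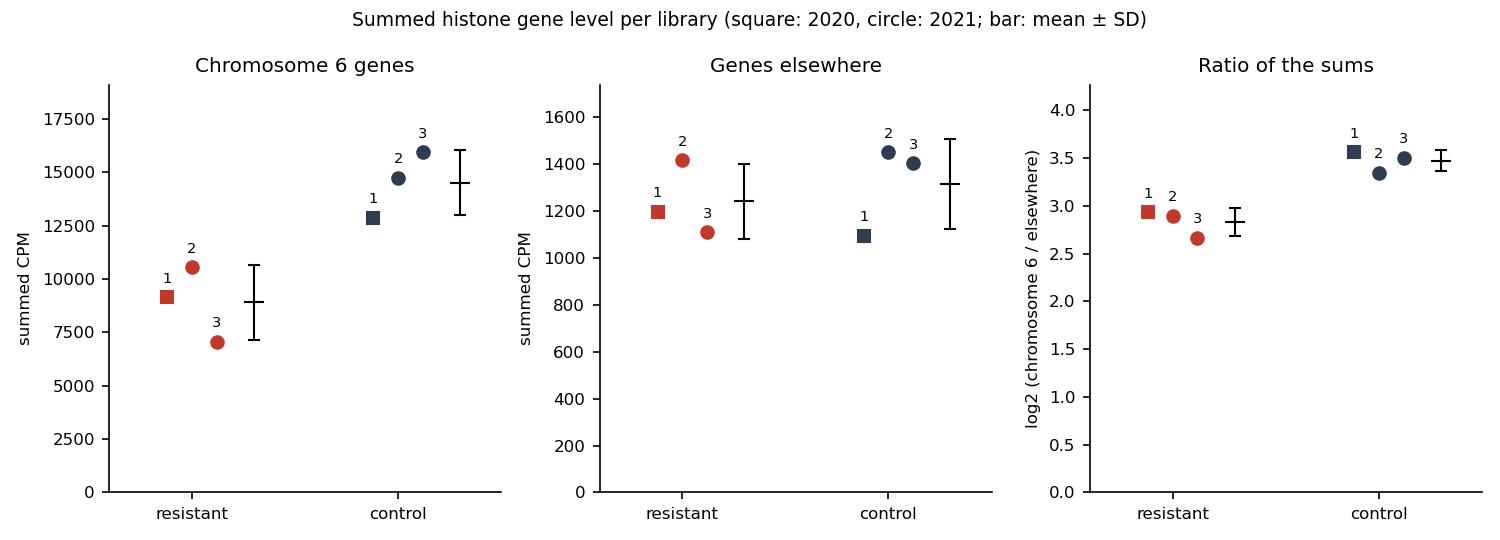
Summed level (CPM) of the chromosome 6 histone genes and of those elsewhere, and the log2 ratio of the sums, for each library (numbers give the replicate, squares 2020, circles 2021, bars mean ± SD). The chromosome 6 sums and the ratio separate the groups, 7050 to 10551 against 12880 to 15930 CPM for the sums, and the sums elsewhere overlap.

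H2A and H2B partners on opposite strands and back to back, with 193 to 247 bases between them, could be compared as pairs. On chromosome 6, 8 such pairs had both partners tested, and in 4 of them both fell: H2AC8 with H2BC8, H2AC11 with H2BC11, H2AC15 with H2BC15 and H2AC17 with H2BC17. All 50-base stretches of H2AC15 (100%) also occur in a transcript annotated for H2BC15, so reads may be shared within that pair. The H2A partner had the more negative log2 fold change in 7 of the 8 pairs, the exception being H2AC6 with H2BC4 (-0.76 and -0.86). No test was made of this order, and H2A genes had larger standard errors, with a median of 0.21 against 0.13 for H2B. On chromosome 1 the partners H2AC25 and H2BC26 rose by nearly the same amount, and H2AC20 and H2BC21 had log2 fold changes of -0.41 and -0.16.

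On chromosome 6 the median difference was smaller in the 2020 pair of libraries than in 2021, and its sign was the same. The size in 2021 depended on resistant replicate 3, whose chromosome 6 sum was 7050 CPM, against 10551 CPM in resistant replicate 2. The log2 ratio of the chromosome 6 sum to the sum elsewhere differed by -0.62 in 2020 and -0.64 in 2021. The median log2 difference of the chromosome 6 genes was -0.46 in 2020 and -0.82 in 2021, with 49 and 50 of 51 genes negative. For the genes elsewhere the medians were 0.26 in 2020 and -0.35 in 2021, and only H2AC25 and H2BC26 among those at 1 CPM or more were higher in the resistant library or libraries of both batches. H2BC26 differed by 0.71 in 2020 and 0.83 in 2021, and H2AC25 by 0.67 and 0.79. The test of a difference between the batches in the resistant effect passed for none of the 13950 genes (0.00%), with 187 genes, none of them a histone gene of these families, at an unadjusted p under 0.05. The 2020 batch holds 1 library of each group, so it gives a value with no spread. The batches themselves differed in 22.9% of genes. Among histone genes 10 were higher in 2021 (H1-1, H2AC25, H2BC10, H2BC11, H2BC14, H2BC17, H2BC18, H2BC26, H3C12 and H4C13) and 2 lower (H2AC7 and H2AC18, both under 1 CPM), against 11.5% and 11.4% of all genes. H3C12 differed the most of the 10, with a log2 fold change of 1.01 (edgeR adjusted p = 0.00478).

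**Figure D4:**
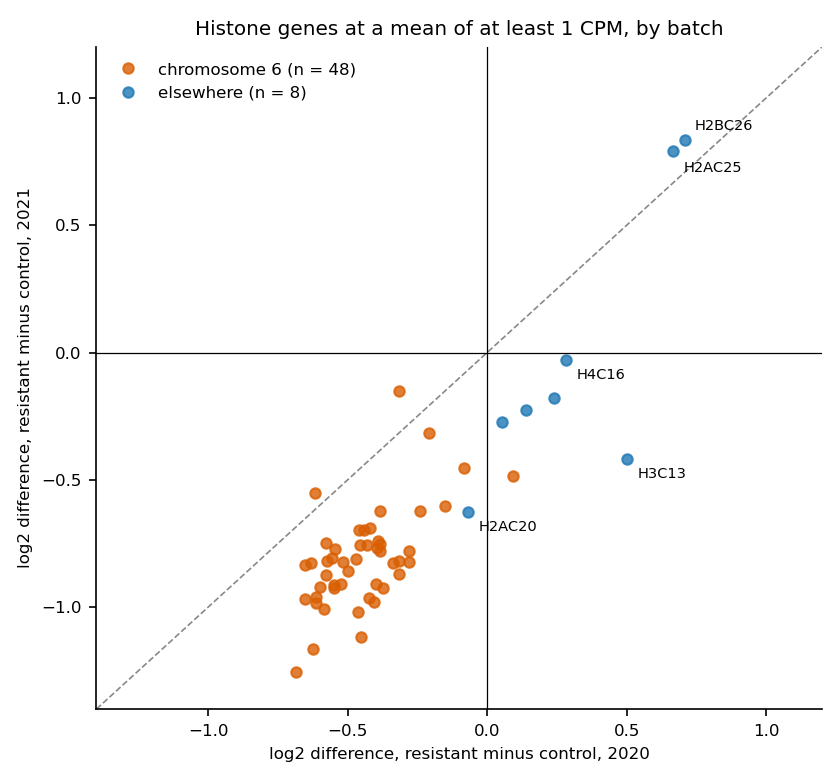
Log2 difference, resistant minus control, of each histone gene averaging 1 CPM or more, in 2020 (horizontal axis, 1 library a group) and in 2021 (vertical axis, 2 libraries a group), with a dashed line where both are equal. Of the 48 chromosome 6 genes 47 were negative in 2020 and 48 in 2021, and H2AC25 and H2BC26 stand alone in the positive corner.

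Other genes that lie among the chromosome 6 histones moved in the same direction. Of 14 tested protein-coding genes between the first and the last histone gene there, 8 fell and none rose, against 5.48% lower among all tested genes. All 14 had a negative log2 fold change, with a median of -0.58. ABT1, a nuclear protein that binds the basal transcription machinery (chr6:26596953-26600739), averaged 23.7 ± 1.12 CPM in resistant and 42.3 ± 5.59 CPM in control libraries (SD, n = 3 each; log2 fold change -0.83, edgeR adjusted p = 0.00267). PRSS16, a thymus serine protease (chr6:27247701-27256620), averaged 12.9 ± 1.09 CPM in resistant and 21.5 ± 1.18 CPM in control libraries (SD, n = 3 each; log2 fold change -0.74, edgeR adjusted p = 0.00344). The others that fell were HFE, BTN2A1, HMGN4, TRIM38, ZNF391 and ZNF184. The median of these neighbours was thus close to that of the histones, -0.58 and -0.68, and the difference between the medians was not tested. The count of 8 was 2 without resistant replicate 3, 4 without resistant replicate 1, 5 without control replicate 1 or resistant replicate 2 and 10 without control replicate 2.

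The shift reached beyond the cluster on chromosome 6. Among the protein-coding genes within 1 Mb of the histone genes, including those between them, 15 of 29 fell and none rose, with a median of -0.51. Within 20 Mb on either side, leaving out the genes between the histones, 138 of 220 fell and 2 rose, with a median of -0.63. Over all protein-coding genes of chromosome 6 further than 1 Mb from the histone genes, 188 of 554 fell and 23 rose (median -0.26). That set takes in the genes of the 20 Mb set that lie beyond 1 Mb, so the 2 sets overlap. Over the protein-coding genes of the other chromosomes 526 of 12588 fell and 828 rose (median near 0, at -0.00055). Around the histone genes of the large chromosome 1 group, 28 other genes within 1 Mb had a median of -0.01, with 2 rises (CTSS and PLEKHO1) and no fall. Within 1 Mb of the pair H2AC25 and H2BC26, 20 genes had a median of -0.29, with 3 falls (C1orf35, NUP133 and CCSAP) and 2 rises. TRIM17, a ubiquitin ligase gene (chr1:228407935-228416861), was among the rises, at 2.19 ± 0.485 CPM in resistant and 1.02 ± 0.497 CPM in control libraries (SD, n = 3 each). Around H4C16 on chromosome 12, 2 of 12 genes rose, PTPRO and ERP27, and none fell. PTPRO was near the floor, at a mean of 0.82 CPM in resistant and 0.14 CPM in control libraries. Among all tested genes 6.23% were higher and 5.48% lower.

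**Figure D5:**
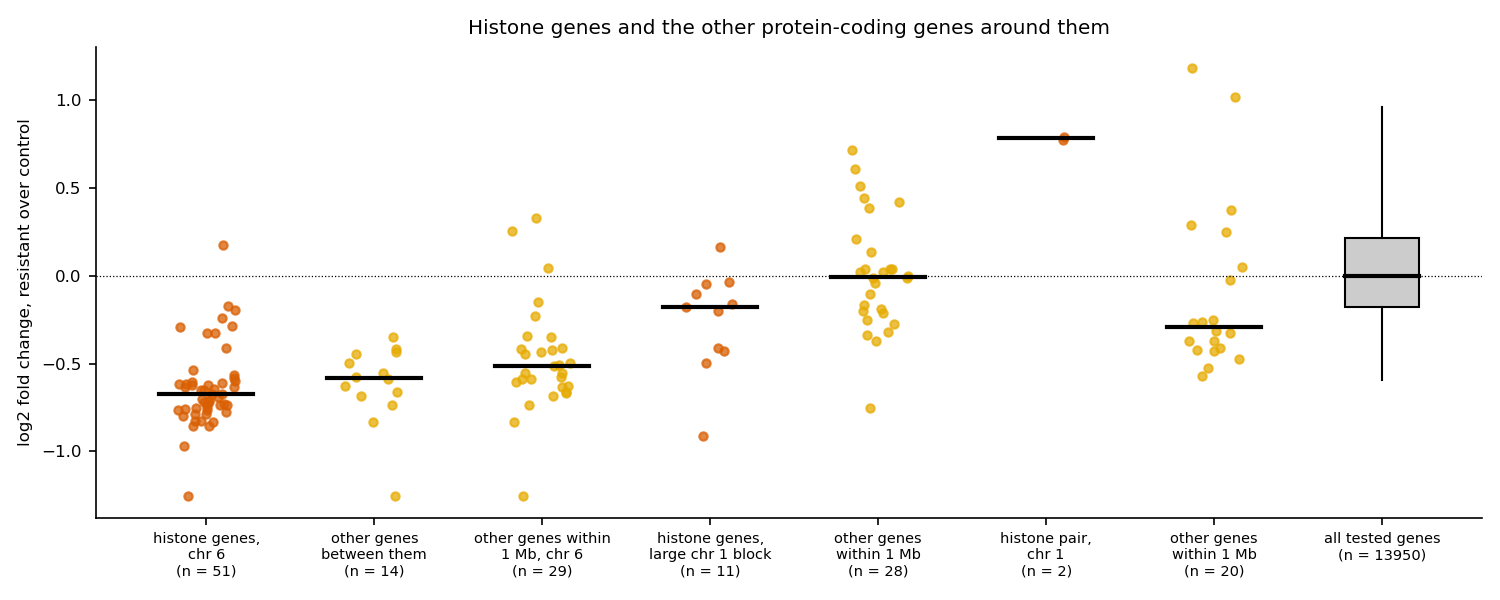
Log2 fold change (resistant over control) of tested histone genes and of other protein-coding genes around them, 1 point a gene with a bar at the median, and for all 13950 tested genes a box from percentile 25 to 75 with lines to percentiles 5 and 95. On chromosome 6 the histone genes (median -0.68) and the genes between them (-0.58) both sit below 0, while the genes around the large chromosome 1 group centre on -0.01.

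Genes that transcribe, mature and assemble histones gave 4 falls and no rise, with 5.48% of all tested genes lower. Of 13 transcription factors, coactivators and cyclin-kinase regulators of histone transcription 2 fell and none rose, with a median of 0.01. These were E2F1, a driver of S phase entry, with a log2 fold change of -0.42 (edgeR adjusted p = 0.0157), and NFYA, the DNA-binding subunit of NF-Y, at -0.40 (edgeR adjusted p = 0.0433), itself a chromosome 6 gene. NPAT had 122, 115 and 128 CPM in resistant and 120, 92.6 and 116 CPM in control libraries, which overlapped (edgeR adjusted p = 0.464). Of 21 genes of 3′ processing and decay, 1 fell, SNRPE, a core protein of the snRNP particles that splice and trim RNA, at -0.39 (edgeR adjusted p = 0.0206). SLBP had 64.8, 61.0 and 63.6 CPM in resistant and 64.5, 72.6 and 66.5 CPM in control libraries (edgeR adjusted p = 0.517). Of 26 histone chaperones and assembly genes, 1 fell, RBBP7, a histone-binding WD40 protein encoded on the X chromosome. It had 283, 194 and 206 CPM in resistant and 493, 403 and 373 CPM in control libraries (log2 fold change -0.90, edgeR adjusted p = 0.00224). The calls of E2F1, NFYA and SNRPE ended when single libraries were left out, with an adjusted p of up to 0.0969, 0.236 and 0.117, and NFYA also with the replicate block (0.0633).

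Replication-independent histone variants, which are made outside S phase as well, had a median log2 fold change of -0.21 over 11 tested genes. H1-10, a linker variant, fell. It had 78.1, 90.4 and 84.5 CPM in resistant and 94.0, 126 and 115 CPM in control libraries (log2 fold change -0.40, edgeR adjusted p = 0.0333), and the groups did not overlap. The call ended when single libraries were left out, with an adjusted p of up to 0.151 without resistant replicate 3.

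RNA levels of genes of DNA replication and of cell division were set beside those of the histones, and proliferation itself was not measured. Of 44 S phase genes 5 fell and none rose (median -0.21), against 5.48% lower among all tested genes. The 5 were POLA1, MCM3, PRIM2, E2F1 and GINS2. The count was 4 with the replicate block, 3 without resistant replicate 2 or 3 and 9 without control replicate 3. Off chromosomes 6 and X, and without the genes already in a list above, such as E2F1, 1 of 37 S phase genes fell (median -0.16). POLA1, the catalytic subunit of the primase-linked polymerase (X chromosome), had 110, 95.2 and 101 CPM in resistant and 220, 217 and 192 CPM in control libraries. MCM3, a subunit of the replicative helicase (chromosome 6), had 163, 183 and 173 CPM in resistant and 301, 359 and 316 CPM in control libraries. Both separated the groups without overlap, with log2 fold changes of -1.04 (edgeR adjusted p = 0.00119) and -0.91 (edgeR adjusted p = 0.0022). PRIM2, the large primase subunit, is also on chromosome 6. PCNA, the sliding clamp, had 347, 298 and 310 CPM in resistant and 376, 388 and 371 CPM in control libraries, lower in every resistant library but short of the threshold (log2 fold change -0.25, edgeR adjusted p = 0.182). Of 22 genes of G2 and M phase 1 fell and none rose (median -0.21), against 5.48% lower among all tested genes. The fall was that of CCNA2, which encodes cyclin A, at a log2 fold change of -0.39 (edgeR adjusted p = 0.0497, 0.077 with the replicate block and up to 0.234 without 1 library). MKI67, a marker of cycling cells, had 675, 1012 and 1719 CPM in resistant and 875, 1739 and 1276 CPM in control libraries and spread more within than between groups (edgeR adjusted p = 0.56). These medians of -0.21 compare with -0.68 for the chromosome 6 histones and -0.13 for those elsewhere, and their part in the histone values was not tested.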

How the data were processed

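The deposited table gives raw counts of reads by gene, not normalised by the authors, with 1 column a library. Per the labels, total RNA (100 ng) went into Kapa RNA HyperPrep libraries, from which Twist exome probes captured mRNA. Trimmomatic 0.38, STAR 2.7.8a and featureCounts of Subread, and the build GRCh38, are named per the submitters' processing notes. The sources used here do not give the strand setting, the treatment of multiply mapped reads, the annotation release or the featureCounts version, so overlapping and near-identical histone genes may share reads: 10 genes share over 90% of their 50-base stretches with another gene, and 4 lie inside another histone gene.

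Genes were filtered with filterByExpr and scaled by TMM in edgeR 4.0.16 (R 4.3.3, robust quasi-likelihood fit, batch and group as terms, 3 residual degrees of freedom), with Benjamini-Hochberg adjustment over all 13950 tested genes and a threshold of 0.05. The batch term was tested in the same fit and the group by batch interaction in another, with 2 residual degrees of freedom. Standard errors come from the F statistic. Names and positions are from RefSeq genes of GRCh38.p14, which named 27745 of 28395 IDs and all 69 histone genes. H2AC1, H2BC1, H4C6 and H4C7 had 0 to 12 counts a library and were not tested. A count of 0 allows up to 3 counts, which is 0.0311 to 0.0808 CPM, for counting error only, since captured fragments are not independent molecules. Levels per length use RefSeq spans under 1000 bases.

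Genes are named where they passed the resistant or batch test, where they had the highest level of their family and location, and in each context list or among the neighbours up to 2 risen and 2 fallen genes of largest change at 1 CPM or more. NPAT, SLBP, PCNA and MKI67 are named whatever their values. Some genes that these rules take are not reported here. The histone genes, the lists and the tests were chosen with earlier results of these data known.

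For libraries that share a replicate number, deviations from the group means correlated across genes at 0.729, 0.143 and 0.155, all over 0.1, so the number was used as a block in an alternative. The first pair is the 2020 batch; the pairing comes from these correlations and not from the labels. Between libraries of a group, chi-square divided by its degrees of freedom was 70.0 to 215, so none was a repeat deposit of another. Whether replicates were grown separately is not in the labels, and p-values then measure only a spread between libraries that may be technical.

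The fit was tested on simulated counts of 13950 genes for the comparison of resistant with control: it recovered 40% of genes changed 1.5-fold and 79.3% at 2-fold, and 8.7% of its calls were unchanged genes. Alternatives were upper quartile scaling, size factors of DESeq2, a mean of at least 1 CPM, no filter, DESeq2 1.42.0, voom of limma 3.58.1, no batch term, the replicate block, 2021 alone and each library left out. A fit without robust moderation was added after seeing the data.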

Additional observations from a re-analysis of the deposited data

How the results depend on the processing

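No called log2 fold change of a histone gene reversed its direction under the 16 alternatives. Values without a call did cross 0: the median of the genes elsewhere was 0.03 without resistant replicate 3, H3C13 ranged from -0.34 to 0.29 and H4C16 from -0.13 to 0.32, and 48 and 47 of 51 chromosome 6 genes were negative without resistant replicate 3 and without control replicate 3. The sums use no test, and were recomputed under the scalings, in 2021 alone, without the most counted gene and without each library. Without the batch term 197 genes were higher and 165 lower, no histone gene was higher, 4 histone genes were lower, all on chromosome 6, none elsewhere was higher (0), and 2 of the genes between them fell. In the 2021 batch alone 564 genes were higher and 448 lower, 1 histone gene was higher, elsewhere, 16 were lower, all 16 on chromosome 6, and 4 of the genes between them fell. In both, fewer samples or terms entered the fit; the cause was not tested further. Leaving out each library in turn gave 338 to 986 higher and 279 to 999 lower genes, 1 to 2 histone genes higher, 8 to 25 lower, all on chromosome 6, 1 to 2 higher elsewhere, and 2 to 10 of the genes between them lower. The chromosome 6 falls numbered 37 with DESeq2, 30 with no filter, 27 with DESeq2 size factors, voom or no robust moderation, and 23 with upper quartile scaling or a mean of at least 1 CPM. With the replicate block 24 fell, with H4C1, H3C7 and H2AC11 lost and no other histone call changed; all genes gave 693 higher and 610 lower. H2AC17, H2BC4, H2BC5 and H3C2 passed under every alternative, and H2BC26 under all but the fit with no batch term. The chromosome 6 median stayed between -0.85 and -0.52, and the log2 ratio of the sums between -0.70 and -0.55. Depth was not varied; 9 tested genes under 1 CPM rest on few reads.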
